A study of Mus musculus with 10 samples.

Results

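Axon guidance ligands and receptors were followed in freshly sorted mesenchymal cells of mouse skin and bone marrow. The members are all genes of the deposited count table whose symbol belongs to the semaphorins, plexins, neuropilins, Eph receptors, ephrins, Slits, Robos, netrins or Unc5 receptors, 58 of 14995 genes. They comprise 33 ligands (20 semaphorins, 8 ephrins, 2 Slits and 3 netrins) and 25 receptors (8 plexins, 2 neuropilins, 10 Eph receptors, 2 Robos and 3 Unc5 receptors).

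These proteins were first known for steering growing axons. Secreted class 3 semaphorins bind neuropilins, which signal through plexins, while most other semaphorins bind plexins directly. Slits bind Robos, netrins bind Unc5 receptors and DCC or neogenin, and ephrins, which are anchored in the membrane, bind Eph receptors on the neighbouring cell. The same molecules act outside the nervous system, where they steer vessels, nerve fibres in skin and cell contacts in stroma.

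Bulk RNA sequencing covered 3 groups of cells. Skin Ebf2+ cells (n = 3) express the transcription factor Ebf2. Skin Ebf2- cells (n = 3) were selected for CD140a and Sca1 and are called PαS. Both came from the dorsal skin of FVB/N mice of 8 to 12 weeks, and the design text gives 3 mice for skin. Bone marrow mesenchymal stem cells, selected for Sca1 and CD51, came from C57BL/6 mice of 8 to 10 weeks (n = 4). For bone marrow the design text gives 4 mice, without tying each library to a mouse. Every population was sorted free of CD45, TER119 and CD31. The labels credit bone marrow libraries 1 to 3, but not 4, to an earlier publication, and give no genotype for these mice beyond the strain. Tissue, strain, sorting markers and partly study differ together between skin and bone marrow, so their shares in any difference cannot be told apart. The labels mention CD140a and Sca1 for the Ebf2- cells and not for the Ebf2+ cells, so within skin these markers and Ebf2 status cannot be told apart.

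The libraries held between 9.83 and 13.0 M counts for skin Ebf2+, between 11.6 and 14.1 M for skin Ebf2- and between 18.1 and 39.4 M for bone marrow. Levels are given in CPM, counts scaled to library size, after TMM scaling, which evens out library composition. Ebf2 itself stood at 210.3, 317 and 156 CPM in skin Ebf2+ libraries, 70.5, 73.5 and 46.98 CPM in skin Ebf2- libraries and 338, 187, 141 and 330.01 CPM in bone marrow libraries, and 10 mesenchymal markers, among them Pdgfra and Col1a1, were detected with summed levels of 30812 to 55845 CPM for skin Ebf2+, 29972 to 129289 CPM for skin Ebf2- and 31048 to 47200 CPM for bone marrow. The sum of 11 mural (vessel wall) markers lay between 781 and 4021 CPM for skin Ebf2+, 115 and 286 CPM for skin Ebf2-, and 258 and 419 CPM for bone marrow, and was highest in skin Ebf2+ 2. Leukocyte markers summed to 1183 CPM in skin Ebf2- 2 and to at most 69.7 CPM elsewhere. Bone marrow 1 and 4 were nearly alike (chi-square per gene 3.19, against 82.7 to 1029 in the other 44 pairs of libraries), and the 2 skin libraries numbered 3 resembled each other more than any other skin pair (r = 0.930 across genes, against 0.541 to 0.846).

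To compare genes, CPM was divided by the length of the longest coding transcript in kilobases (RPKM). Slit3, a secreted Robo ligand, ranked 1 in every group by mean, at 92.9 ± 35.7 RPKM in skin Ebf2+, 118 ± 27.95 RPKM in skin Ebf2- and 91.3 ± 24.9 RPKM in bone marrow (SD). Its RPKM was 123, 102 and 53.4 in the skin Ebf2+ libraries, 149.9, 101 and 102 in the skin Ebf2- libraries and 109, 79.8, 61.7 and 114 in the bone marrow libraries. It was among the 2 highest members in each of the 10 libraries, and the groups overlap. Sema3c, a secreted semaphorin, ranked 2 in both skin groups, at 72.7 ± 45.2 RPKM in skin Ebf2+ and 61.1 ± 24.97 RPKM in skin Ebf2- (SD). In bone marrow it ranked 4, at 44.4 ± 1.82 RPKM. By library Sema3c had 104, 20.9 and 93.5 RPKM in skin Ebf2+, 63.8, 34.9 and 84.6 RPKM in skin Ebf2- and 45.8, 42.4, 46.1 and 43.4 RPKM in bone marrow, so the skin libraries spread widely and the bone marrow libraries lay close together. Nrp1, the receptor subunit that binds class 3 semaphorins and VEGF, ranked 3 in skin Ebf2+ (62.6 ± 42.6 RPKM), 4 in skin Ebf2- (29.9 ± 7.44 RPKM) and 3 in bone marrow (54.7 ± 22.1 RPKM). In skin Ebf2+ the means of these 3 genes lie within 1 SD of each other, so their order there does not exceed the spread between libraries. The secreted netrin Ntn1 ranked 10 in skin Ebf2+ (10.8 ± 8.53 RPKM), 5 in skin Ebf2- (26.9 ± 11.6 RPKM) and 2 in bone marrow (72.5 ± 15.3 RPKM).

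A level of at least 1 CPM in every library of a group was reached by 33 members in skin Ebf2+, 41 in skin Ebf2- and 35 in bone marrow, and by 26 members in all 10 libraries. No read was counted in at least 1 library for 26 members. Shares over all genes were not computed for these member counts. Of all 14995 genes, 12754, 12476 and 14641 had a read in skin Ebf2+ 1, 2 and 3. In skin Ebf2- these were 14240, 14114 and 14465 genes, and in bone marrow 13466, 14296, 14192 and 12963 genes. Skin Ebf2+ 1 and 2 thus had the fewest genes with a read, so missing reads there are not particular to the members. Below 1 CPM in every library of their group stood Efnb3, Ephb1, Robo2, Sema4f, Sema4g and Sema7a in skin Ebf2+, Epha7 and Sema5b in skin Ebf2-, and Efna3, Ephb1 and Sema5b in bone marrow. Summed over members, ligands reached 275 to 385 RPKM in skin Ebf2+, 267 to 411 RPKM in skin Ebf2- and 289 to 341 RPKM in bone marrow. Receptors summed to 135 to 239.5 RPKM in skin Ebf2+, 129 to 162 RPKM in skin Ebf2- and 121 to 235 RPKM in bone marrow. The ranges of the groups overlap in both sums.

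**Figure D1:**
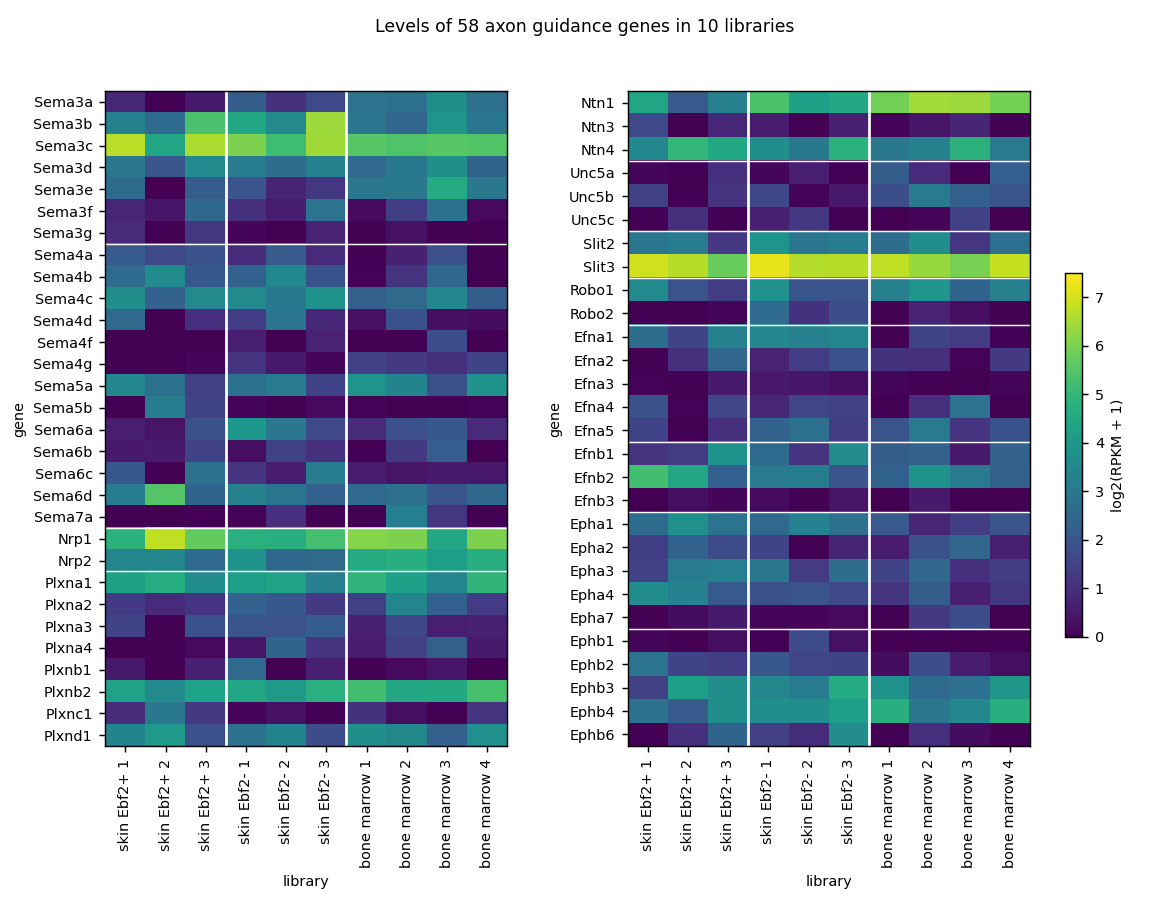
Heat map of log2(RPKM + 1) for the 58 members (rows, grouped by family, white lines between families) in 10 libraries (columns, skin Ebf2+, skin Ebf2- and bone marrow from left to right). Slit3, Sema3c and Nrp1 are bright in nearly every column, Ntn1 is brightest in bone marrow, and many members are close to 0 in single libraries.

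Promoter sequences from RefSeq (GRCm38.p6, 250 bases before to 50 bases after a transcript start) were available for 51 of the 58 members. They are shown because the skin cells were sorted on Ebf2, whose family binds a palindrome with the core CCCNNGGG. The core, which reads alike on both strands, lay in the windows of 17 of the 51 members (33.3%), against 21.2% of the genes of the deposited table with a window. The longer palindrome, the same core with T before and A after it, lay in 2 members, Plxnb1 and Sema4b (3.92%, against 1.20% of those genes). 3 stretches follow, for the member with the highest level (Slit3), the member with the lowest p-value within skin (Robo2) and a member with the longer palindrome (Plxnb1), with the motif in capitals. The Robo2 window belongs to 1 of several annotated starts and lies inside the gene's span. The Plxnb1 window (109095186 to 109095485) also lies inside its gene's span (109093849 to 109119915). A match describes letters only, and binding was not measured.
Slit3, chr11:35121253-35121282, plus strand: acccagagggaCCCGAGGGcgctcggtacc
Robo2, chr16:74411826-74412075, minus strand: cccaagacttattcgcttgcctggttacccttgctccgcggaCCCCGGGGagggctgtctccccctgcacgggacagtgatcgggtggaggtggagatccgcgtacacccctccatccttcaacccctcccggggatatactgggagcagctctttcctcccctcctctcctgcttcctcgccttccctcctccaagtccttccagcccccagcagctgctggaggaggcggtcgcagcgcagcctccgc
Plxnb1, chr9:109095236-109095335, plus strand: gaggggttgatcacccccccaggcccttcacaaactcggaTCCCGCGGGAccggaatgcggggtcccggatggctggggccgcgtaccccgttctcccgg

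Within skin, the comparison of Ebf2+ with Ebf2- cells asked which guidance genes mark the Ebf2+ population. None of the 53 members tested passed an adjusted p of 0.05 in edgeR's quasi-likelihood test, and neither did any other gene (0% of 13477). An unadjusted p below 0.05 was reached by 6 members (11.3%), against 2.55% of all genes. DESeq2 called 3 members (Plxna4, Plxnc1 and Robo2), against 0.881% of all genes, and limma-voom called 0, against 0% of all genes. Blocking on the replicate number left 0 of 53 members in edgeR, where 8 of all 13477 genes passed. It also left 0 in limma-voom, where 21 of all 13477 genes passed. The block gave 5 members in DESeq2 (Ntn1, Plxna4, Plxnc1, Robo2 and Sema6a), against 2.52% of all genes. The members' median log2 fold change was -0.09, beside 0.01 over all genes tested. For 7 members the 2 groups did not overlap, 13.2% against 6.68% of all genes tested. Of these, 2 stood higher in skin Ebf2+ (2.98% of all genes did) and 5 lower (3.70% of all genes). Within the 3 pairs of skin libraries of equal number, 8 members (15.1%) stood higher in skin Ebf2+ in every pair (Efnb2, Epha1, Epha4, Nrp1, Plxna1, Plxnc1, Plxnd1 and Sema4b), against 13.1% of all genes tested. In every pair 14 members (26.4%) stood lower, against 16% of all genes tested, namely Efna1, Efna5, Ephb4, Ntn1, Plxna2, Plxna3, Plxna4, Plxnb2, Robo1, Robo2, Sema3a, Sema3b, Sema3f and Unc5c.

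Among the receptors, Robo2 (Entrez 268902, chromosome 16, 73891976 to 75447443), which binds Slits, stood near 0 in skin Ebf2+. It had 0, 0 and 0.781 CPM in skin Ebf2+, against 44.1, 9.95 and 21.5 CPM in skin Ebf2-. Every skin Ebf2- library lay above every skin Ebf2+ library, and the log2 fold change was -6.49 ± 1.74 (SE; edgeR adjusted p = 0.873). That value rests on skin Ebf2+ 3, the only skin Ebf2+ library with a read. Without it Robo2 was at least 168-fold lower in skin Ebf2+, against a floor of 3 counts over the other 2 libraries. Robo2 had a log2 fold change of -5.82 without skin Ebf2- 1, its highest library. Its paralogue Robo1 had 82.98, 21.04 and 11.1 CPM in skin Ebf2+ and 96.6, 22.4 and 21.1 CPM in skin Ebf2-, overlapping sets with a high library 1 in each, and stood lower in skin Ebf2+ in every pair.

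Of the 4 plexin-A receptors, Plxna2, Plxna3 and Plxna4 had groups that did not overlap, and all 3 stood lower in skin Ebf2+. Plxna4 (Entrez 243743, chromosome 6, 32144543 to 32588192), which transmits Sema3a signals together with neuropilin-1, had 0, 0.436 and 1.95 CPM in skin Ebf2+, against 4.84, 55.4 and 15.1 CPM in skin Ebf2-. The highest value fell in skin Ebf2- 2, the library with leukocyte transcripts, whose part in the difference was not tested. The log2 fold change was -4.95 ± 1.63 (SE; edgeR adjusted p = 0.9999), with -3.62 without that library and -6.70 without skin Ebf2+ 3. Plxna2, a receptor of class 6 semaphorins, had 15.6, 9.34 and 13.05 CPM in skin Ebf2+ and 45.7, 35.2 and 15.8 CPM in skin Ebf2-, a log2 fold change of -1.35 ± 0.75 (SE). Plxna3 had 13.03, 0.175 and 18.8 CPM in skin Ebf2+ and 19.6, 19.5 and 24.4 CPM in skin Ebf2-, with a near-absent skin Ebf2+ 2. Plxna1 had 164, 215 and 105 CPM in skin Ebf2+ and 157, 177 and 78.2 CPM in skin Ebf2-, overlapping sets.

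Plxnc1 (Entrez 54712, chromosome 10, 94790866 to 94945015), the receptor of Sema7a, was the plexin that stood higher in skin Ebf2+ without overlap. It had 6.87, 51.6 and 10.5 CPM in skin Ebf2+, against 0.367, 1.87 and 0 CPM in skin Ebf2-. In bone marrow Plxnc1 had 8.28, 1.47, 0.150 and 8.55 CPM, overlapping skin Ebf2+. Skin Ebf2+ 2, which also had the highest sum of mural markers, was the highest library. The sum of the 4 neuronal markers in the table (of 10 listed) was also highest there, at 112 CPM, against 8.96 and 10.7 CPM in the other skin Ebf2+ libraries, between 12.1 and 29.6 CPM for skin Ebf2- and between 13.0 and 36.0 CPM for bone marrow. The part of mural and of neuronal cells was not tested, here or for Sema5b, Sema6d and Nrp1, which peaked in the same library. The log2 fold change was 4.92 ± 1.68 (SE; edgeR adjusted p = 0.9999), with 3.45 without that library and 6.88 without skin Ebf2- 2. Its ligand Sema7a had no read in any skin Ebf2+ library and 0.147, 3.52 and 0 CPM in skin Ebf2-.

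Epha4 (Entrez 13838, chromosome 1, 77367182 to 77515107), an Eph receptor that binds both ephrin classes, was the other member higher in skin Ebf2+ without overlap. Its levels were 75.3, 57.3 and 21.2 CPM in skin Ebf2+, against 16.7, 18.2 and 13.5 CPM in skin Ebf2-. The lowest skin Ebf2+ library, 3, lay just above the highest skin Ebf2- library, and the log2 fold change was 1.67 ± 0.69 (SE; edgeR adjusted p = 0.9999). All 5 EphA receptors had a fold change above 0 in the fit, and 1 of 5 EphB receptors did (50.4% of all genes). Ephb4, the receptor of ephrin-B2, had 25.7, 15.01 and 52.2 CPM in skin Ebf2+ and 51.3, 51.01 and 75.2 CPM in skin Ebf2-, overlapping sets.

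Of the ligands, 1 had groups that did not overlap. Sema3a (Entrez 20346, chromosome 5, 13124822 to 13603485), the prototype repulsive semaphorin, had 4.66, 0 and 2.73 CPM in skin Ebf2+, against 21.7, 6.497 and 12.8 CPM in skin Ebf2-, with a log2 fold change at -2.48 ± 1.58 (SE; edgeR adjusted p = 0.9999), or -3.31 without skin Ebf2+ 1. Sema6a, a membrane-bound ligand of plexin-A2 and plexin-A4, had 3.84, 2.18 and 18.05 CPM in skin Ebf2+ and 102, 48.3 and 14.96 CPM in skin Ebf2-. Its sets touch only through the 2 libraries numbered 3, and the log2 fold change was -2.78 ± 1.04 (SE; edgeR adjusted p = 0.9999), between -4.18 without skin Ebf2+ 3 and -1.98 without skin Ebf2- 1. Sema5b stood at 0, 36.7 and 8.75 CPM in skin Ebf2+ and 0.294, 0.138 and 0.783 CPM in skin Ebf2-, so its fold change of 5.20 ± 2.05 (SE, log2) rests on libraries 2 and 3, and was 3.35 without skin Ebf2+ 2.

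The remaining abundant ligands overlapped within skin. Efnb2, the ephrin of arteries and their wall cells, had 174, 101 and 19.999 CPM in skin Ebf2+ and 36.6, 38.3 and 14.2 CPM in skin Ebf2-. Skin Ebf2+ 1 and 2 lay above every skin Ebf2- library, and skin Ebf2+ 3 did not, though each exceeded its skin Ebf2- pair. Sema6d, a membrane-bound plexin-A1 ligand, had 50.98, 284 and 27.9 CPM in skin Ebf2+ and 55.9, 42.3 and 24.98 CPM in skin Ebf2-, with 1 high library, skin Ebf2+ 2. Ntn1 had 118, 20.5 and 50.8 CPM in skin Ebf2+ and 236, 109 and 129 CPM in skin Ebf2-, where 1 skin Ebf2+ library reached into the range of the other group and each stood below its skin Ebf2- pair. Nrp1, the receptor of class 3 semaphorins, had 96.01, 395 and 185 CPM in skin Ebf2+ and 93.7, 90.5 and 138 CPM in skin Ebf2-, with skin Ebf2+ 2 highest and each skin Ebf2+ library above its pair. In bulk samples, fewer cells that express a gene and less RNA per cell cannot be told apart.

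**Figure D2:**
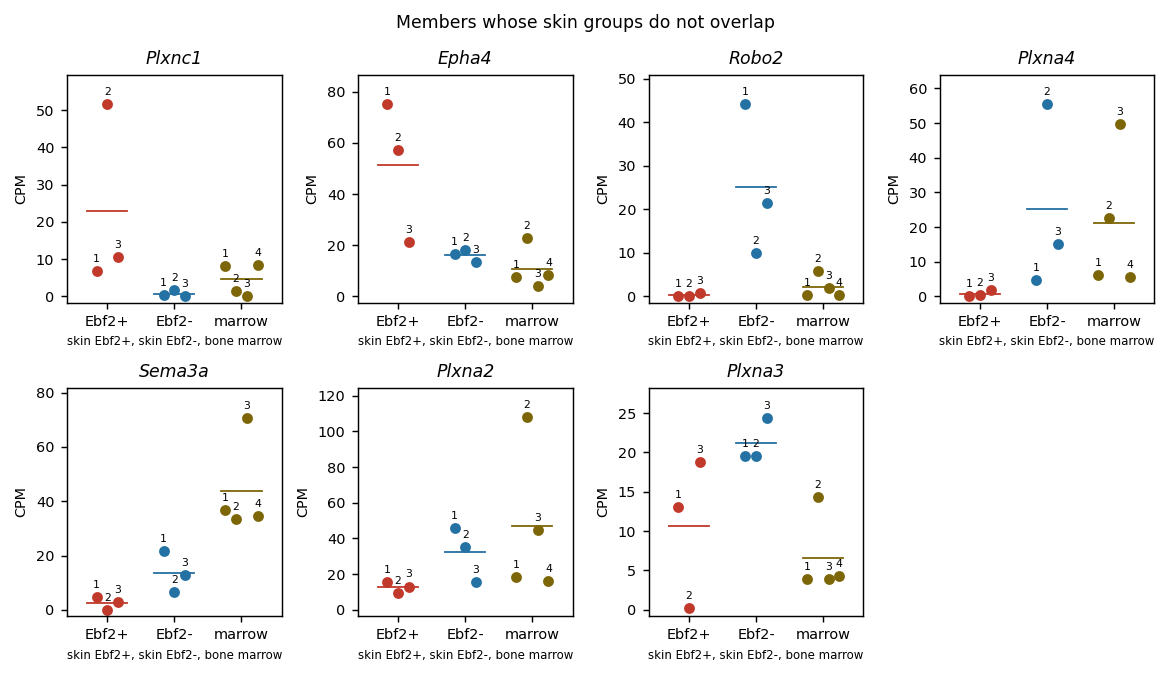
CPM (y axis, linear, from 0) of the 7 members whose skin groups do not overlap, in skin Ebf2+, skin Ebf2- and bone marrow from left to right. Each point is 1 library with its number, and bars are means. Plxnc1 and Epha4 stand higher, and Robo2, Plxna4, Sema3a, Plxna2 and Plxna3 lower, in skin Ebf2+ than in skin Ebf2-.

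Against bone marrow, skin Ebf2+ cells were compared in a fit of all 10 libraries. Of 57 members tested, 0 passed an adjusted p of 0.05 in edgeR, against 0.923% of all genes (134 of 14520). At an unadjusted p below 0.05 there were 13 members (22.8%), against 14.6% of all genes. DESeq2 called 8 members (Epha1, Epha4, Ntn1, Plxna4, Sema3a, Sema4g, Sema5b and Sema7a), against 7.67% of all genes, and limma-voom called 1 (Ntn1), against 1.54%. The groups did not overlap for 10 members (17.5%, against 13.7% of all genes tested), with 1 higher (6.05% of all genes) and 9 lower (7.66% of all genes) in skin Ebf2+. The members' median log2 fold change was 0.13, beside 0.09 over all genes. These p-values and SEs, and those below against bone marrow, count the nearly alike bone marrow 1 and 4 as separate samples. With bone marrow 1 and 4 summed as 1 sample, 0 of 57 members and 51 of 14397 genes passed in edgeR.

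Ntn1 (Entrez 18208, chromosome 11, 68209364 to 68386826) had the lowest p-value of the members. It stood at 118, 20.5 and 50.8 CPM in skin Ebf2+, against 343, 512, 494 and 353 CPM in bone marrow, where all 4 libraries lay above the 3. The log2 fold change was -2.75 ± 0.61 (SE) with an edgeR adjusted p of 0.0592, and with bone marrow 1 and 4 summed as 1 sample the adjusted p was 0.118 (0.000268 to 0.499 over all alternatives). Without skin Ebf2+ 1 the log2 fold change was -3.63. Neo1, which encodes the netrin receptor neogenin and is no member by symbol, had 247, 117 and 58.4 CPM in skin Ebf2+ and 249, 409.7, 242 and 231 CPM in bone marrow, overlapping sets. The Unc5 receptor Unc5b had 10.2, 0 and 6.95 CPM in skin Ebf2+ and 14.6, 44.3, 22.9 and 16.8 CPM in bone marrow, without overlap.

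Sema3a, Sema3e, Nrp2, Plxna4 and Plxnb2 were among the other members that stood lower without overlap. Sema3a had 4.66, 0 and 2.73 CPM in skin Ebf2+ and 36.7, 33.6, 70.8 and 34.5 CPM in bone marrow, with a log2 fold change at -4.16 ± 1.18 (SE; edgeR adjusted p = 0.122), or -5.07 without skin Ebf2+ 1. Sema3e, which binds plexin-D1 without a neuropilin, had 36.2, 0.0873 and 24.7 CPM in skin Ebf2+ and 47.1, 48.2, 161 and 47.3 CPM in bone marrow. Bone marrow 3 was high for both, and it also had the highest sum of chondrocyte markers, 17355 CPM against 4142 to 4292 CPM in the other bone marrow libraries and at most 115 CPM in any skin library; the part of cartilage cells was not tested. Nrp2, the neuropilin that pairs with Sema3f, had 64.2, 66.1 and 34.8 CPM in skin Ebf2+ and 158, 168, 115 and 164 CPM in bone marrow. Its log2 fold change was -1.46 ± 0.51 (SE; edgeR adjusted p = 0.191), and the sets do not overlap. Plxna4 had 6.22, 22.6, 49.7 and 5.7002 CPM in bone marrow, above its skin Ebf2+ levels given before, and the log2 fold change was -4.69 ± 1.46 (SE; edgeR adjusted p = 0.152), between -6.47 without skin Ebf2+ 3 and -3.87 without bone marrow 3. Plxnb2, a receptor of class 4 semaphorins, had 127, 72.2 and 127 CPM in skin Ebf2+ and 238, 142, 147 and 255 CPM in bone marrow. Its levels for skin Ebf2- were 133, 99.4 and 168 CPM. The skin Ebf2+ libraries all lay below bone marrow, and 1 skin Ebf2- library did not.

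Other semaphorins had sparse counts in at least 1 group. Sema4g had 0.116, 0 and 0.391 CPM in skin Ebf2+ and 7.79, 6.502, 5.09 and 8.7003 CPM in bone marrow. Sema7a, anchored to the membrane by a lipid, had no read in skin Ebf2+ and 0.09796, 27.96, 4.28 and 0 CPM in bone marrow. Against a floor of 3 counts over the skin Ebf2+ group, it was at least 88.5-fold lower there than the bone marrow mean. Without bone marrow 2, which carried most of the level, that bound was 16.0-fold and rested mostly on bone marrow 3. Bone marrow 1 and 4 had 2 and 0 reads, so the sets overlap and no bound holds against these 2 libraries. Sema5b was higher in skin Ebf2+, where libraries 2 and 3 carried it, and stood at 0.196, 0, 0 and 0.20001 CPM in bone marrow.

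Most Eph receptors had fitted fold changes above 0 in skin Ebf2+. Epha1 (Entrez 13835, chromosome 6, 42358487 to 42373314), a receptor of ephrin-A1, had 17.2, 41.5 and 20.5 CPM in skin Ebf2+, against 10.6, 2.44, 5.06 and 9.6004 CPM in bone marrow, the only member higher without overlap. The log2 fold change was 1.93 ± 0.72 (SE; edgeR adjusted p = 0.224). Epha4 had 7.59, 22.8, 3.92 and 8.3003 CPM in bone marrow, below skin Ebf2+ 1 and 2 and with bone marrow 2 above skin Ebf2+ 3, and its log2 fold change was 2.27 ± 0.71 (SE; edgeR adjusted p = 0.153), or 2.96 without bone marrow 2. Fold changes lay above 0 for 8 of 10 Eph receptors and for 5 of 7 ephrins tested, against 52.6% of all genes. In skin Ebf2-, over the same bone marrow libraries, 7 of 10 Eph receptors and 5 of 7 ephrins did, against 52.2% of all genes. Ephb1, counted in both, rests on 1 bone marrow read. Efnb2 had 19.2, 63.8, 34.9 and 19.5 CPM in bone marrow, overlapping skin Ebf2+, and its log2 fold change was 1.52 ± 0.70 (SE; edgeR adjusted p = 0.339). It was 0.82 without skin Ebf2+ 1 and 0.95 with the replicate block, which joins skin and bone marrow libraries by number alone. Ephb4 had 109, 30.1, 43.4 and 112 CPM there, with high libraries 1 and 4.

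**Figure D3:**
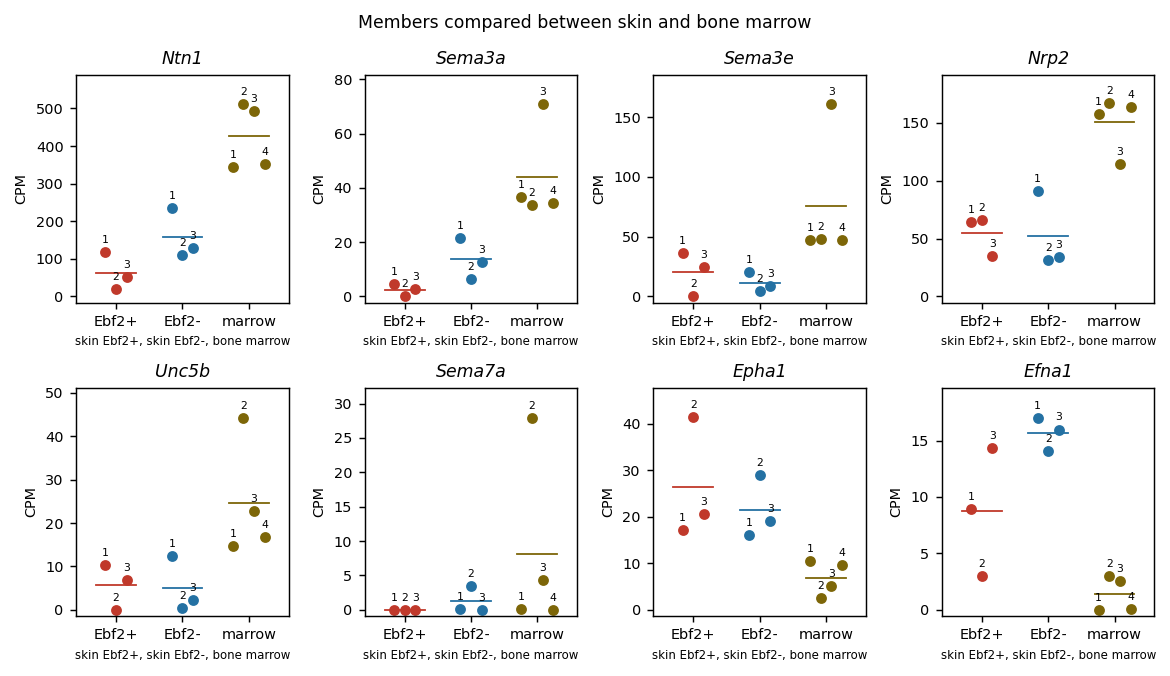
CPM (y axis, linear, from 0) of 8 members in skin Ebf2+, skin Ebf2- and bone marrow from left to right, each point 1 library with its number and bars the means. Ntn1, Sema3a, Sema3e, Nrp2 and Unc5b stand lower in both skin groups than in bone marrow, Sema7a is carried by 2 bone marrow libraries, and Epha1 and Efna1 stand higher in skin Ebf2-, as does Epha1 in skin Ebf2+, than in bone marrow.

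Skin Ebf2- cells were compared with the same bone marrow libraries, so both comparisons share them. No member of 57 passed an adjusted p of 0.05 in edgeR, against 0.730% of all genes (106 of 14520), and 11 members (19.3%) had an unadjusted p below 0.05, against 12.2% of all genes. DESeq2 called 1 member, Ephb1, which has 1 read in all of bone marrow, and limma-voom called 0, against 5.44% and 2.02% of all genes. The groups did not overlap for 11 members (19.3%, against 18.7% of all genes tested), a share near that of all genes, with 6 higher (9.46% of all genes) and 5 lower (9.24% of all genes) in skin Ebf2-. The members' median log2 fold change was 0.36, beside 0.06 over all genes, and 59.6% of the members had a fold change above 0, against 52.2% of all genes. With bone marrow 1 and 4 summed as 1 sample, 0 of 57 members and 47 of 14397 genes passed in edgeR. The members' median was then 0.07, beside 0.02 over all genes.

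The 5 members lower in skin Ebf2- without overlap were Nrp2, Ntn1, Sema3a, Sema3e and Unc5b, 8.77% of those tested against 9.24% of all genes. Of the 7 class 3 semaphorins, 5 had a fold change above 0 and 2 below. Unc5b, at 12.4, 0.346 and 2.35 CPM in skin Ebf2-, lay below every bone marrow library. Nrp2 had 91.4, 31.5 and 34.2 CPM in skin Ebf2-, against 158, 168, 115 and 164 CPM in bone marrow, with a log2 fold change at -1.53 ± 0.51 (SE; edgeR adjusted p = 0.2101), or -2.20 without skin Ebf2- 1. For Ntn1 the log2 fold change was -1.43 ± 0.58 (SE; edgeR adjusted p = 0.323), and Sema3e, at 20.3, 4.91 and 8.77 CPM in skin Ebf2-, one of -2.74 ± 1.19 (SE; edgeR adjusted p = 0.368), between -3.47 without skin Ebf2- 1 and -2.06 without bone marrow 3.

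Ephrin-A1, whose gene is Efna1, was among the members higher in skin Ebf2- without overlap. Efna1 (Entrez 13636, chromosome 3, 89271730 to 89280951) had 17.03, 14.03 and 15.97 CPM in skin Ebf2-, against 0, 2.98, 2.52 and 0.050002 CPM in bone marrow, and 8.96, 2.97 and 14.4 CPM in skin Ebf2+. The 3 skin Ebf2- libraries lay close together and bone marrow 1 and 4 had at most 1 read, and the log2 fold change was 3.49 ± 1.47 (SE; edgeR adjusted p = 0.347), or 4.17 without bone marrow 2. Epha1, its receptor, had 16.1, 29.1 and 19.1 CPM in skin Ebf2-, a log2 fold change of 1.63 ± 0.72 (SE) over bone marrow. The sum of keratinocyte markers lay between 194 and 772 CPM for skin Ebf2- and between 6.90 and 943 CPM for skin Ebf2+, against 8.56 to 11.2 CPM for bone marrow, where Krt14, Krt17 and Epcam had no read, and their part in these 2 genes was not tested. Robo2 had 0.294, 5.82, 2.04 and 0.35001 CPM in bone marrow, below all 3 skin Ebf2- libraries, and the log2 fold change was 3.56 ± 1.46 (SE; edgeR adjusted p = 0.328), between 2.88 without skin Ebf2- 1 and 4.80 without bone marrow 2.

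Sema3b, a secreted semaphorin, was carried by the libraries numbered 3. It had 73.3, 36.1 and 282 CPM in skin Ebf2- and 22.6, 15.6, 47.01 and 22.9 CPM in bone marrow, overlapping through skin Ebf2- 2. Its log2 fold change was 2.27 ± 0.80 (SE; edgeR adjusted p = 0.245), and 1.04 without skin Ebf2- 3. Sema6c, a membrane-bound semaphorin, had 4.92, 2.14 and 32.03 CPM in skin Ebf2- and 1.91, 1.27, 1.68 and 1.55 CPM in bone marrow, again highest in library 3.

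**Figure D4:**
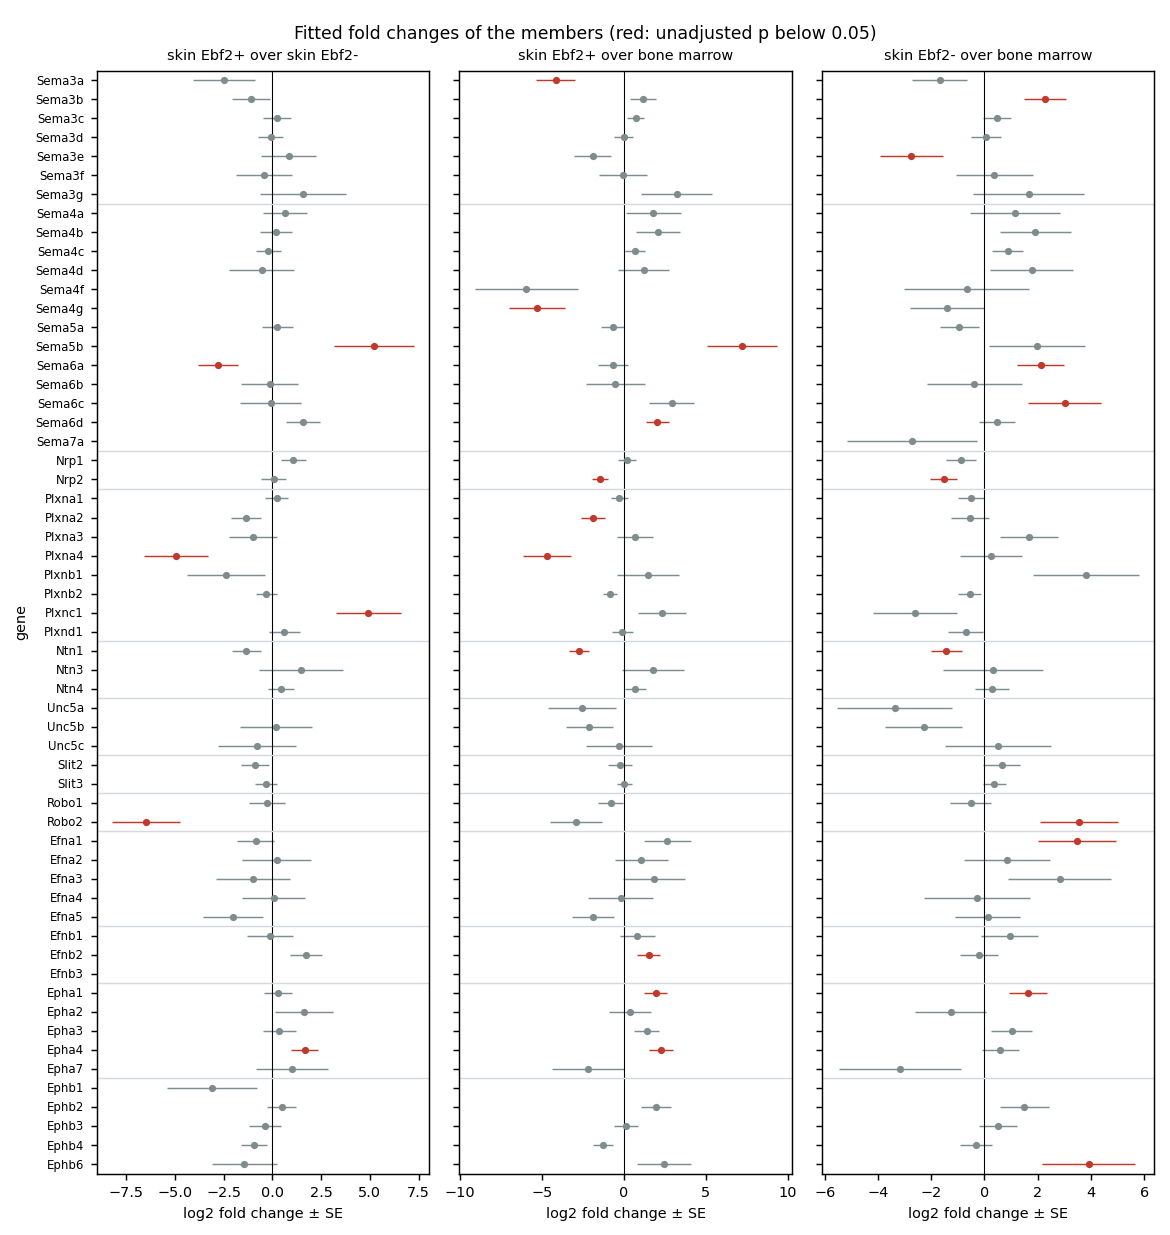
Fitted log2 fold changes (x axis) with standard errors (bars) of the members tested, by family from top to bottom, for skin Ebf2+ over skin Ebf2-, skin Ebf2+ over bone marrow and skin Ebf2- over bone marrow from left to right. Red points have an unadjusted p below 0.05, and the widest bars belong to members with few reads. Members not tested in a comparison have no point there. No value is drawn for Sema7a and Ephb1 in the second panel or Ephb1 in the third, where 1 group had no or 1 read.

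Further genes of guidance signalling were read from a list of 79 co-receptors, adhesion molecules and cytoskeletal effectors, of which 73 were in the table. Within skin, 0 of 70 tested passed in edgeR, and 6 had an unadjusted p below 0.05 (8.57%, against 2.55% of all genes). In each comparison with bone marrow 1 of 71 passed (1.41%), a share near that of all genes (0.923% for skin Ebf2+ and 0.730% for skin Ebf2-). It was the adhesion molecule Nrcam, a partner of neuropilin-2 receptors. Nrcam rose to 55.98, 4.19 and 27.8 CPM in skin Ebf2+ and 36.04, 78.998 and 85.6 CPM in skin Ebf2-, against 0.343, 3.18, 0.539 and 0.55002 CPM in bone marrow. The log2 fold changes were 4.67 ± 0.998 (SE; edgeR adjusted p = 0.0489) for skin Ebf2+ and 5.86 ± 1.05 (SE; edgeR adjusted p = 0.0246) for skin Ebf2-. Over all alternatives the adjusted p ranged from 2.37e-05 to 0.443 for skin Ebf2+ and from 3.51e-08 to 0.489 for skin Ebf2-. The first call was lost with bone marrow 1 and 4 summed (adjusted p = 0.131), and so was the second (adjusted p = 0.0756). It was likewise lost when 1 library was left out, except for skin Ebf2+ 2 or bone marrow 2 in the first (adjusted p = 0.0539 to 0.142 where lost), and except for any skin Ebf2+ library or bone marrow 2 in the second (adjusted p = 0.0520 to 0.0942 where lost).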

How the data were processed

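RNA was measured in sorted cells of 10 mouse samples. Per the labels' protocols, cDNA was made with the SMART-Seq v4 kit and sequenced as 75 bp single-end reads. Reads were aligned with STAR 2.6.1d and counted with featureCounts, per the submitters' processing notes and the file headers. The deposited values, per the file headers, are whole-number read counts per gene on GRCm38, 1 column per sample, with no replicates pooled. No source used here gives the strand setting, so overlapping and antisense genes cannot be told apart. The authors' 10 normalized columns were left out.

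The test on the counts of all 14995 genes was that of edgeR 4.0.16 under R 4.3.3 (quasi-likelihood test, TMM scaling, filterByExpr, two-sided, Benjamini-Hochberg adjusted p below 0.05 over all genes tested), in the 6 skin libraries for the comparison within skin and in all 10 libraries for the others. SE is the log2 fold change divided by the square root of F. DESeq2 1.42.0 and limma 3.58.1 (voom) were alternatives, as were other scalings, filters, a replicate block, leaving out each library and summing bone marrow 1 and 4. Groups do not overlap where every library of 1 lies above every library of the other in CPM. Scripts were checked on simulated data. RPKM uses the longest coding transcript per gene in GENCODE M21. Coordinates and promoters are those of RefSeq GRCm38.p6. The design text gives numbers of mice but does not tie each library to a mouse, so p-values measure the spread between these samples, which may be technical. Floors cover counting error only, because reads were not tagged by molecule.

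Values in every skin library are given, by rule, for the member with the highest RPKM in each family and for members apart within skin. Their bone marrow values are given too, but for Robo1, Sema6d, Nrp1, Plxna2 and Plxna3 the full set is only in the figures. Sema6a, Sema5b, Plxna1, Neo1, Sema3e, Sema4g, Sema7a, Nrp2, Sema3b and Sema6c were chosen after their values were seen. Members and lists were chosen with earlier results of these data known. Deviations from the group means correlated between skin libraries of equal number (r = 0.181, 0.221 and 0.599), each above 0.1. Equal numbers were therefore compared as pairs and used as the replicate block, while the main fit within skin took no pairs. Pairs of unequal number reached 0.147, also above 0.1, so the evidence for pairs is weak. Skin and bone marrow came from mice of different strains, so equal numbers between them are no pairs. Such numbers gave r = 0.083, -0.054 and 0.130 for skin Ebf2+ with bone marrow, and 0.034, -0.040 and 0.081 for skin Ebf2-. The remaining marker lists summed, in skin Ebf2+, to 103 to 414 CPM (endothelial), 660 to 1541 CPM (Schwann), 8.96 to 112 CPM (neuronal), 14.1 to 36.2 CPM (melanocyte) and 0.349 to 83.6 CPM (erythroid). In skin Ebf2- these sums were 168 to 226, 1173 to 1804, 12.1 to 29.6, 32.7 to 69.7 and 7.83 to 13.9 CPM in that order, and in bone marrow 42.5 to 77.7, 1150 to 1626, 13.0 to 36.0, 21.5 to 69.3 and 31.1 to 138 CPM.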

Additional observations from a re-analysis of the deposited data

Results flagged for a closer look

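In the 4 bone marrow libraries, 28 members were checked for a single library far from the rest (by Dixon's ratio), and 6 passed. Chance picks about 1 in 20 groups, and bone marrow 1 and 4 are nearly alike. Bone marrow 2 was high for Ephb6 (3.86 CPM, against 0.100 to 0.689 CPM in the others), for Plxna3 (14.3 CPM, against 3.89 to 4.25 CPM) and for Sema7a (28.0 CPM, against 0 to 4.28 CPM). Bone marrow 3 was high for Sema3a (70.8 CPM, against 33.6 to 36.7 CPM) and for Sema3e (160.7 CPM, against 47.1 to 48.2 CPM). It was low for Nrp1 (78.1 CPM, against 229.9 to 248.6 CPM).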

How the results depend on the processing

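The count of members called within skin was 0 in edgeR and became 3 with DESeq2 and 5 with the replicate block and DESeq2. With the replicate block in edgeR it stayed at 0 of 53, while 8 of all genes passed. For skin Ebf2+ against bone marrow the count of 0 became 8 with DESeq2, 1 with limma-voom and 6 with bone marrow 1 and 4 summed and DESeq2. That last setting called 712 of all 14995 genes. For skin Ebf2- against bone marrow the count became 1 with DESeq2 and 1 with bone marrow 1 and 4 summed and DESeq2. There the last setting called 562 of all 14995 genes. When 1 library was left out in turn, the 3 counts ranged from 0 to 0, 0 to 1 (Ntn1, without skin Ebf2+ 1) and 0 to 0. The cause was not tested. The replicate block, which joins skin and bone marrow libraries by number alone, left both counts against bone marrow at 0. Of all 14520 genes, 67 passed for skin Ebf2+ and 69 for skin Ebf2- in that edgeR setting. Every one of 31 member fold changes kept its sign in all alternatives that gave a value, and 12 passed the threshold in at least 1 of them. The 31 had been chosen for an unadjusted p below 0.05 in edgeR, without Ephb1, or for groups apart within skin. A kept sign was therefore likely beforehand and is no separate support. Leaving out 1 library moved 24 of the 31 by over 1.5 times in at least 1 case. The log2 fold change of Sema6d over bone marrow was 2.03 in skin Ebf2+, and 0.39 without skin Ebf2+ 2. The same block, by number alone, gave Nrcam an edgeR adjusted p of 0.218 for skin Ebf2+ and 0.0998 for skin Ebf2- against bone marrow. Upper-quartile scaling shifted the median log2 fold change of all genes to -0.11 within skin, 0.19 for skin Ebf2+ and 0.27 for skin Ebf2- against bone marrow. The depth, 9.83 M counts in the shallowest library, limits what can be said of members with few reads. Depth is not the only limit. Skin Ebf2+ 3 had a read for 14641 genes at 9.90 M counts, and skin Ebf2+ 2 for 12476 genes at 13.0 M counts.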
